A study of Homo sapiens with 3 samples.

Results

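The regions described are the broad ATAC-seq peaks within 1 kb of a transfer RNA (tRNA) gene in hCMEC/D3 cells, a human line of immortalized endothelium from the small vessels of the brain. A peak was a member if it overlapped a gene of biotype tRNA in the RefSeq gene table of GRCh38.p14, or the 1 kb on either side, on chromosomes 1 to 22 and X. Of the 106415 peaks in the list, 292 (0.274%) were members, and they lay at 343 of 429 tRNA genes. The peaks came from 1 ATAC library, replicate 2 by its title, of cells grown to confluence on collagen, with no treatment or genotype given in the labels. The series also holds 2 RNA libraries of the same line, which are not used here. A single immortalized line with no other cell type, treatment or second ATAC library gives no test between groups, so every value below is a description of this library. ATAC-seq uses the Tn5 transposase, which cuts and tags open DNA, so that tags pile up where chromatin is accessible.

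A tRNA carries an amino acid to the ribosome and reads a codon with its anticodon. Its genes are short and are transcribed by RNA polymerase III from a promoter that lies inside the gene: the A box and the B box bind TFIIIC, which places TFIIIB in front of the start, and TFIIIB recruits the polymerase. In human cells tRNA genes are scattered singly and in clusters over most chromosomes, with many copies of near-identical sequence, and each cell type uses only part of them. A gene symbol such as TRN-GTT4-1 gives the amino acid by its letter (N for asparagine), the anticodon, the family of genes that share a mature sequence, and the locus within that family.

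The internal promoter is shown first. Of the tRNA genes, 14 lay whole inside a RefSeq promoter window (GRCh38.p14) of a neighbouring gene, and their sequences were taken from those windows. All 14 held the core of the B box, GTTCNANNC, which was searched on both strands and was found in 7.48% of the 35116 promoter windows of 300 bases in that table. The narrower core GTTCGANNC, every match of which also matches GTTCNANNC, was found in 10 of the 14 and in 0.829% of the windows. The B box is part of the tRNA gene itself, so its presence here was fixed in advance and says nothing about the peaks. TRN-GTT6-1 and TRI-AAT8-1, printed below, hold both cores and had no peak. A search pattern for the A box was found in 4 of the 14 and in 9.68% of the windows. A stricter pattern was found in none of the 14 and in 0.373%. Both patterns fix bases at which the genes printed below differ from one another. A gene without a match may therefore still hold an A box, and these counts do not show how many genes have one. Below, 7 genes are printed 5′ to 3′ with the B box core in capitals, chosen to show genes with and without a peak and genes of identical sequence:
TRN-GTT4-1: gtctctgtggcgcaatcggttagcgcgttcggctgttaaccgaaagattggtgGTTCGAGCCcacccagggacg
TRN-GTT6-1: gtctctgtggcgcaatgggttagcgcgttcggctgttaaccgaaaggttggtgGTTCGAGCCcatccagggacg
TRI-AAT8-1: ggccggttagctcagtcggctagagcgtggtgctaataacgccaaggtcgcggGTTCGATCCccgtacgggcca
TRI-TAT2-2: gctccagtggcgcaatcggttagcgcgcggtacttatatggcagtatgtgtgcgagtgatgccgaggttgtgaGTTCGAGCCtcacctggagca
TRR-ACG2-1: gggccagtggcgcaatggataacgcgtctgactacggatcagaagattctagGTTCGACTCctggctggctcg
TRH-GTG1-3: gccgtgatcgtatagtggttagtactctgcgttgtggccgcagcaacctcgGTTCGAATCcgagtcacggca
TRP-TGG3-2: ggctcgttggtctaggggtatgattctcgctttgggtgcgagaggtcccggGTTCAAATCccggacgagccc

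The asparagine gene TRN-GTT4-1 (chr1:16889677-16889750, plus strand) lay inside a peak with a pileup, the number of stacked tags, of 51.4 and a fold over the local background of 6.19. TRN-GTT6-1 (chr1:143735920-143735993, minus strand) had no peak within 1 kb. The 74 bases of these genes differ at 3 positions, C17G, A47G and C65T, counted from 1 at the 5′ end of the gene with the base of TRN-GTT4-1 first. The isoleucine gene TRI-AAT8-1 (chr6:27668583-27668656, plus strand) also had none. TRI-TAT2-2 (chr6:27020346-27020439, plus strand), whose 94 bases include an intron, lay in a peak with a pileup of 32.0 and a fold of 7.87, the fifth highest fold among the members. The arginine gene TRR-ACG2-1 (chr3:45688999-45689071, minus strand) lay in a peak with a pileup of 78.4.

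Identical tRNA genes did not carry identical peaks. TRH-GTG1-3 (chr1:148281365-148281436, plus strand) and TRH-GTG1-9 have the same 72 bases and read the histidine codons. The first lay inside a peak with a pileup of 16.8, whereas at the second, on chromosome 15, the peak lay only in the flank, at an end of SHF and over the neighbouring TRH-GTG1-8, with a pileup of 51.7. The proline genes TRP-TGG3-2 (chr14:20684016-20684087, plus strand) and TRP-TGG3-5 share their 72 bases as well. TRP-TGG3-2 lay in the longest member peak, of 3357 bp, at ends of ANG and RNASE4, and TRP-TGG3-5 lay in a peak of 314 bp at OR1F1 on chromosome 16, with a second peak of 1013 bp within 1 kb that it shared with TRP-AGG2-8. Reads that fall within a repeated gene cannot be assigned to 1 copy by sequence, and how multiply mapped reads were treated is not given in the sources used here.

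A further window shows a tRNA gene in front of a gene of the tRNA transcription machinery. TRL-AAG2-4, a leucine gene on chromosome 16, ended 187 bases before the start of POLR3E, which encodes a subunit of RNA polymerase III. The 250 bases before that start (chr16:22297159-22297408, plus strand, RefSeq GRCh38.p14) hold 63 of the gene's 82 bases, printed in capitals with the rest in lower case:
POLR3E upstream window: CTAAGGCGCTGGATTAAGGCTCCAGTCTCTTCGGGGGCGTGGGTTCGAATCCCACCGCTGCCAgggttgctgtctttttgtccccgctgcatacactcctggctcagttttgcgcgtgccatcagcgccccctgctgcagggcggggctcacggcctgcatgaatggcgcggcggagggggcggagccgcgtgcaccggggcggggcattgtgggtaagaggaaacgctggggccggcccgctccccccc
One peak of 1653 bp, from 22297045 to 22298697, covered both genes. Its pileup was 76.2 and its fold 4.47.

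At least 1 peak lay within 1 kb of 343 of the 429 tRNA genes (79.95%, 95% Wilson interval 75.9% to 83.5%), and 86 had none. Over all 58419 genes the background was 42.8%, where genes other than tRNA genes were searched within 1 kb of either end. A long gene is thus searched in separate windows at its start and its end, over more bases than a tRNA gene. Protein-coding genes stood at 73.5%, small nuclear RNA (snRNA) genes at 58.4%, lncRNA genes at 38.9%, microRNA (miRNA) genes at 24.0% and small nucleolar RNA (snoRNA) genes, most of them inside introns of other genes, at 14.4%. With peaks of at least 4-fold only, the order of the first pair turned, with 46.9% for tRNA and 56.5% for protein-coding genes. Under a filter on q alone, with −log10 q at 5 or above, it held, at 70.2% and 67.3%. Genes within a cluster share peaks, so the Wilson intervals, which treat genes as independent, are too narrow.

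The proximity of protein-coding genes moved with this share. All 55 tRNA genes within 1 kb of an end of a protein-coding gene had a peak, compared with 288 of the other 374 (77.0%). For the short RNA genes that likewise had no protein-coding end within 1 kb, the shares were 55.1% for snRNA, 18.5% for miRNA and 12.2% for snoRNA genes. tRNA genes that lay inside another gene had a peak in 72.6% of 117 cases and the remaining 312 in 82.7%.

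The peaks sat on the tRNA genes themselves. Of the 343 genes with a peak, 327 (95.3%) were overlapped by one and 16 had a peak in the flank only. A gene lay wholly inside its peak in 318 of those 327 cases. Of the overlapped genes, 164 were the only tRNA gene of their peak and had no protein-coding end within 1 kb. For these the median distance between the centres of gene and peak was 115 bp (quartiles 46.0 and 199 bp). The peak had to overlap the gene here, so this distance was bounded by construction. At the centre of tRNA genes without a protein-coding end within 1 kb, 72.2% of genes were covered by a peak. Coverage was 27.4% at 500 bp, 13.8% at 1000 bp and 5.75% at 2000 bp, averaged over both sides. At snRNA genes it was 39.1% at the centre, and at miRNA genes 6.69%, against 4.59% at 2000 bp. At snoRNA genes the centre, with 2.80%, lay below the 5.19% at 2000 bp.

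**Figure D1:**
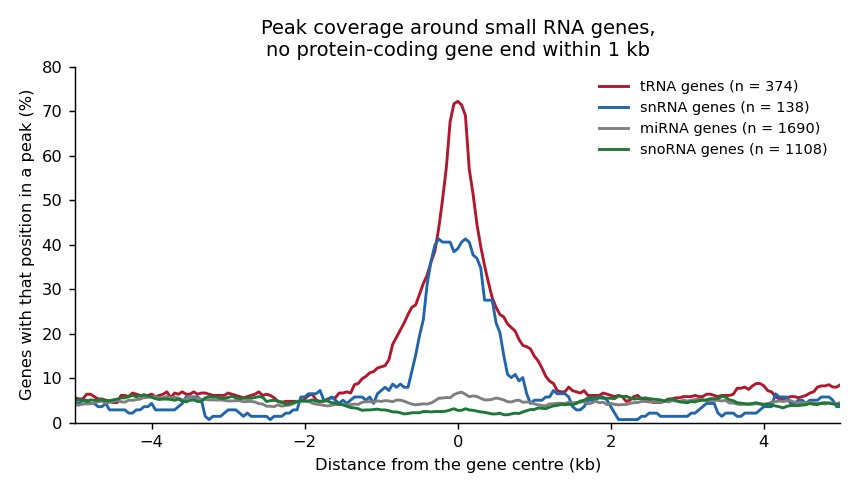
Share of genes, in percent, that have a called peak at each distance in kb from the gene centre, for tRNA, snRNA, miRNA and snoRNA genes with no protein-coding gene end within 1 kb. The tRNA line reaches 72.2% at the centre and falls to 5.75% at 2000 bp; strand is not in the gene table, so left and right are genome directions and not upstream and downstream.

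Pooled over all chromosomes, the members had medians of length and pileup slightly below those of other gene-end peaks. Their median length was 730 bp (quartiles 436 and 1240 bp) and their median pileup 33.0 tags (19.1 and 52.0). The 23476 other peaks within 1 kb of either end of a gene had 788 bp (430 and 1166 bp) and 34.3 tags (19.3 and 51.4). This order depended on which peaks were counted. Without chromosome 6, whose members were small, the member medians were 979 bp and 45.5 tags, above those of the other gene-end peaks. The order of length also turned under either filter, with 947 bp for members and 904 bp for other gene-end peaks at −log10 q of 5 or above, and 902 bp and 889 bp at 4-fold or above. The order of pileup held under both filters. Members had 39.3 tags and other gene-end peaks 40.3 tags under the filter on q, and 32.1 and 39.5 tags at 4-fold or above. In the unfiltered list the member median lay above 46.2% of the other gene-end peaks in length and above 48.1% in pileup. The caller computes the fold against the same library, within 10000 bp but not below a floor given below. Its median was 4.31 at tRNA genes and 4.64 at other gene ends. A fold of at least 4 was reached by 172 members (58.9%), against a background of 65.4% of the other gene-end peaks and 62.5% of all peaks. The local background, computed here from pileup and fold, had a median of 6.78 tags at tRNA genes and 6.16 at other gene ends. Its lowest value was 2.37 tags in both classes, a floor at which the fold follows the pileup alone. Among peaks at no gene end the lower quartile was 2.37 as well. Members at this floor with 11.0 and 12.7 tags had folds of 3.57 and 4.05, so the 4-fold filter also leaves out the weakest peaks.

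The members were split by whether they also lay at an end of a protein-coding gene. The 51 that did were in the median 1424 bp long with 54.2 tags. The 15796 other protein-coding-end peaks had 943 bp and 40.1 tags. The 51 had to reach both a tRNA gene and a protein-coding end, and a longer peak does so more often by construction. The 241 members away from protein-coding ends had 628 bp and 28.2 tags. Compared with these, the 7680 other gene-end peaks away from protein-coding ends had 510 bp and 23.6 tags, and peaks at no gene end 401 bp and 19.6 tags. By class, again away from protein-coding ends, snRNA-end peaks had 890 bp and 35.1 tags, miRNA-end peaks 481 bp and 27.8 tags, and snoRNA-end peaks 455 bp and 21.9 tags. At no other gene end at all lay 197 members, with 579 bp and 27.1 tags. The 29 members that touched only the flank of a tRNA gene had 439 bp and 24.4 tags. The 263 that overlapped one had 814 bp and 34.2 tags, and a longer peak overlaps a gene more often by construction. These are differences between medians of 1 library, and no test applies to them.

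**Figure D2:**
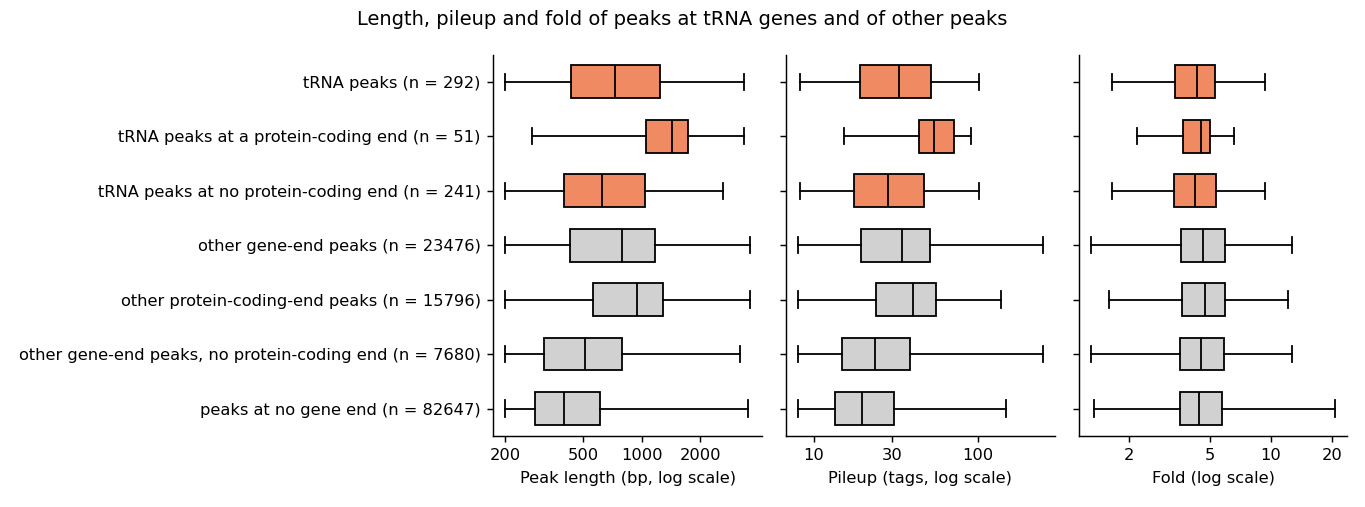
Length in bp, pileup in tags and fold of peaks by class, on log axes; boxes run between the quartiles with the median as a line, and whiskers reach the lowest and highest peak. Members at a protein-coding end (median 1424 bp and 54.2 tags) stand to the right of every other class shown in length and pileup, while the medians of fold lie between 4.20 and 4.71.

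Protein-coding genes that shared a peak with tRNA genes were of many kinds. They included TRIM41 with TRK-CTT2-3 and TRV-CAC1-5, PER1, a gene of the circadian clock, with TRS-CGA1-1 and TRT-AGT5-1, and PRMT5, an arginine methyltransferase gene, with TRR-ACG1-3. POLG, the gene of the mitochondrial DNA polymerase, shared a peak of 80.9 tags with TRR-TCG1-1, and ILF2 one of 66.3 tags with the initiator methionine gene TRX-CAT1-1. These genes were named after their values were seen.

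The members of highest pileup lay on different chromosomes. The highest (chr16:57299489-57300915), of 102 tags and 5.01-fold, lay over the leucine genes TRL-CAG2-1 and TRL-CAG2-2. Next came a peak of 96.0 tags at the glutamate gene TRE-TTC2-1 on chromosome 13 from 44917566 to 44918791, and one of 91.4 tags at TRK-CTT2-3 and TRV-CAC1-5 on chromosome 5 from 181221805 to 181223825. The glutamine gene TRQ-TTG1-1 had 89.4 tags on chromosome 17 from 49191752 to 49193289. A peak of 89.0 tags on chromosome 12, from 124939105 to 124941097, held the aspartate gene TRD-GTC2-10 and the alanine gene TRA-TGC4-1. Of these 5 peaks, only that at TRIM41 lay at another gene's end.

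The members of highest fold were other peaks, of moderate pileup over a low local background. TRE-TTC4-2 had the highest fold, 9.34, from 36.6 tags over a local background of 3.03. The alanine genes TRA-TGC7-1, TRA-AGC3-1 and TRA-TGC5-1 on chromosome 6 followed, with folds of 8.89, 8.19 and 8.03 and pileups of 30.01, 26.6 and 28.2 tags. The lowest pileups were 8.21 at TRL-CAA5-1 on chromosome 11, 8.45 in the flank of TRI-AAT5-3, a gene with another peak of 15.9 tags over it, and 8.87 at TRT-AGT4-1, both on chromosome 6. Their −log10 q values were 1.28, 1.38 and 1.87, near the limit of the list.

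Members with more than 1 tRNA gene within 1 kb were longer and of higher pileup in the median than those with 1. A longer peak reaches more genes by construction. The 222 members with 1 tRNA gene had medians of 629 bp and 27.7 tags. Members with 2 genes, 51 in number, had 1071 bp and 45.3 tags, the 11 with 3 genes had 979 bp and 52.0 tags, and the 8 with 4 genes had 1411 bp and 72.9 tags. Length did not rise at each step. Median folds were 4.60, 3.91, 3.10 and 3.49, while the median local background was 4.81, 11.3, 17.5 and 20.0 tags. The widest members after that at ANG were 2809 bp with 4 tRNA genes at ends of ALOXE3 and HES7 on chromosome 17, and 2628 bp at TRR-TCT1-1 and BCAR3 on chromosome 1. Then came 2618 bp over TRG-TCC2-1, TRH-GTG1-1 and TRK-CTT2-1 on chromosome 1, and 2544 bp over TRW-CCA1-1, TRG-TCC3-1, TRD-GTC2-11 and TRP-CGG1-3 on chromosome 17.

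tRNA genes are concentrated on a few chromosomes, and chromosome 6 alone held 154 of the 429 (35.9%). Of these, 119 (77.3%) had a peak, and medians over the 115 members there were 535 bp and 21.98 tags. All other members together, 177 in number, had 979 bp and 45.5 tags. The 1264 other gene-end peaks of chromosome 6 had 819 bp and 36.5 tags. Between 26 and 29 Mb, where the replication-dependent histone genes lie among the tRNA genes, 111 members had a median of 533 bp and 21.98 tags, and 86 other gene-end peaks 904 bp and 42.8 tags. The median fold did not follow this order, at 4.33 for those members and 4.04 for those other peaks, with local backgrounds of 3.28 and 8.99 tags. Of the 115 members, 3 lay at a histone gene end. The share of other gene-end peaks at histone gene ends was not computed, so this count has no background to be judged by.

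Chromosome 1 had 85 tRNA genes, 68 of them with a peak, and 56 members with a median pileup of 33.2 tags. Chromosome 17 had a peak at 31 of 33 genes (93.9%), with a median pileup of 61.3 tags and a median fold of 3.06. Chromosomes 14, 5 and 11 had 18 of 19, 17 of 18 and 12 of 13 genes with a peak. Chromosome 16 had 23 of 26 and chromosome 19 had 7 of 7. Chromosome 7 stood lower, with 8 of 22 genes (36.4%, 95% Wilson interval 19.7% to 57.0%) and a median member pileup of 18.3 tags. On chromosome X 1 of 4 genes had a peak, and the single genes of chromosomes 4, 18 and 22 had none.

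With neighbours within 10 kb joined, the tRNA genes formed 80 clusters of 2 or more genes, holding 293 genes, and 136 single genes. A peak was present at 244 of the 293 clustered genes (83.3%, 95% Wilson interval 78.6% to 87.1%) and at 99 of the 136 single genes (72.8%, 64.8% to 79.6%). With peaks of at least 4-fold only, this order turned, with 41.3% of clustered and 58.8% of single genes. In 51 of the 80 clusters every gene had a peak, in 23 some had, and in 6 none had. Single genes had longer peaks than clustered ones, with a median length of 972 bp against 618 bp. Their median pileup was 36.7 against 31.5 tags and their median fold 4.86 against 4.03. These medians rest on 99 peaks at single genes and 173 at clustered genes, not on all 292 members. The contrast was not repeated without chromosome 6, whose members had a median length of 535 bp, against 979 bp for all other members. Whether chromosome 6 accounts for it was not tested.

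The largest cluster, on chromosome 1 from 161440171 to 161480636, held 24 genes for glycine, aspartate, glutamate and leucine, of which 21 had a peak. It contains a tandem array whose units repeat about every 7.4 kb, with 7381 to 7418 bases between the starts of successive TRD-GTC2 genes. In 4 of its units a single peak covered TRE-CTC1, TRG-TCC2 and TRD-GTC2 and came within 1 kb of TRL-CAG1. These 4 peaks were close to one another, with lengths of 1395 to 1441 bp, pileups of 69.9 to 73.6 tags and folds of 3.44 to 3.72. The peak of the first unit, at TRD-GTC2-1, was smaller, at 979 bp and 52.0 tags. The leucine gene differed between the units. A further peak of 230 bp lay over TRL-CAG1-2, with 34.9 tags, and another of 230 bp over TRL-CAG1-5, with 29.97 tags. None was called over TRL-CAG1-3 or TRL-CAG1-4. TRG-GCC1 differed as well. TRG-GCC1-1 and TRG-GCC1-4 lay in peaks of 282 and 256 bp with pileups of 47.1 and 56.4 tags. No peak was called at TRG-GCC1-2 or TRG-GCC1-3. The folds at TRG-GCC1-1 and TRG-GCC1-4, 2.15 and 2.04, were low beside local backgrounds of 21.4 and 27.1 tags. Near-identical repeats receive reads that cannot be told apart, so the likeness of the units is no replication.

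The next clusters by number of genes were on chromosomes 16, 6 and 11. On chromosome 16 from 3150674 to 3192060, 13 of 14 genes for arginine, lysine and proline had a peak, in 13 peaks, and TRK-CTT5-1 had none. On chromosome 6 from 26299677 to 26331515, 10 of 12 genes had one, with pileups of 23.3 to 50.2 tags. The cluster from 28789770 to 28823389 on the same chromosome had 7 of 8 alanine and phenylalanine genes in separate peaks of 12.2 to 30.01 tags. All 8 genes of the cluster on chromosome 11 from 59550629 to 59566452 lay within 1 kb of 5 peaks of 34.4 to 73.7 tags. Among them TRL-TAA3-1 had its peak in the flank only. On chromosome 17 from 8220869 to 8227064, 7 genes for 7 amino acids shared 2 peaks of 74.0 and 75.9 tags. On chromosome 6 from 28710589 to 28747816, all 7 genes of a cluster of the same size lay at 7 separate peaks of 13.2 to 23.1 tags. Both clusters of 7 genes were named after their values were seen.

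**Figure D3:**
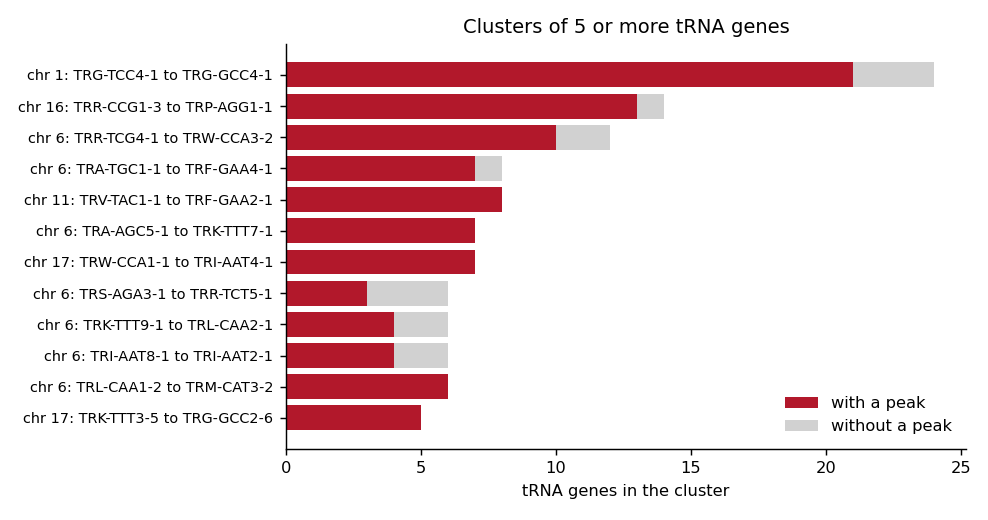
Number of tRNA genes with (red) and without (grey) a peak within 1 kb in each of the 12 clusters of 5 or more genes, named by chromosome and by first and last gene. The chromosome 1 cluster has 21 of 24 genes with a peak, and the chromosome 6 cluster from TRS-AGA3-1 to TRR-TCT5-1 has 3 of 6.

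By amino acid, every gene for aspartate (13), glutamate (15), proline (20) and threonine (20) and all 8 initiator methionine genes, named TRX-CAT, had a peak. The initiator tRNA starts translation and is distinct from the elongator methionine tRNA, for which 8 of 11 genes had a peak. These full shares did not hold with peaks of at least 4-fold only: proline fell to 30% of its genes, threonine to 45%, glutamate to 53.3%, aspartate to 53.8% and the initiator genes to 87.5%. Tyrosine (69.2%), serine (65.4%), asparagine (61.9%), histidine (55.6%) and phenylalanine (54.5%) then stood above the first 4. At −log10 q of 5 or above, proline and glutamate stayed at 100%, and threonine stood at 75%. Initiator peaks ran from 12.8 tags at TRX-CAT1-5 on chromosome 6 to 66.3 tags at TRX-CAT1-1 on chromosome 1. Arginine (92.3%), leucine (90.6%), valine (90.0%) and histidine (88.9%) followed. Between these and cysteine lay tryptophan (85.7%), serine (84.6%), glutamine (78.9%), tyrosine (76.9%), alanine (73.0%), phenylalanine (72.7%), lysine (70.4%), asparagine (66.7%) and isoleucine (65.2%). Glycine, with 24 of 30 genes, lay between serine and glutamine. Most neighbours in this order have overlapping intervals. Counting only peaks that overlap the gene itself, leucine fell to 75%, below serine at 84.6% and glutamine at 78.9%. Arginine then stood at 88.5%, valine at 83.3% and histidine at 77.8%.

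The selenocysteine gene TRU-TCA1-1 on chromosome 19, whose tRNA reads a stop codon to insert selenocysteine, had a peak of 1139 bp at 41.98 tags and 6.07-fold. The other gene of that name, TRU-TCA2-1 on chromosome 22, had none.

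Cysteine had the lowest share, with a peak at 10 of 29 genes (34.5%, 95% Wilson interval 19.9% to 52.7%), all with the anticodon GCA. Of the 29, 18 lie on chromosome 7, where 5 had a peak (27.8%), and on chromosome 17 4 of 5 had one. Without chromosome 7 the cysteine share was 45.5%. The cysteine peaks had a median pileup of 20.8 tags, compared with 69.9 tags for aspartate and 61.0 tags for glutamate, the highest medians among the amino acids. TRC-GCA4-1 had the highest cysteine peak, of 59.2 tags, at LASP1 on chromosome 17, and TRC-GCA9-2 the lowest, of 9.60 tags, on chromosome 7.

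Anticodons of 1 amino acid differed as well. All 5 isoleucine genes with TAT had a peak, 10 of 15 with AAT, and none of the 3 with GAT, all on 1 chromosome. For glycine, 9 of 9 genes with TCC, 9 of 13 with GCC and 6 of 8 with CCC had one. For alanine, all 4 genes with CGC, 7 of 8 with TGC and 16 of 25 with AGC did. Serine had 8 of 8 with GCT, 4 of 4 with TGA, 3 of 4 with CGA and 7 of 10 with AGA. Each of the 3 proline, the 3 threonine and the 2 glutamate anticodons had a peak at every gene.

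**Figure D4:**
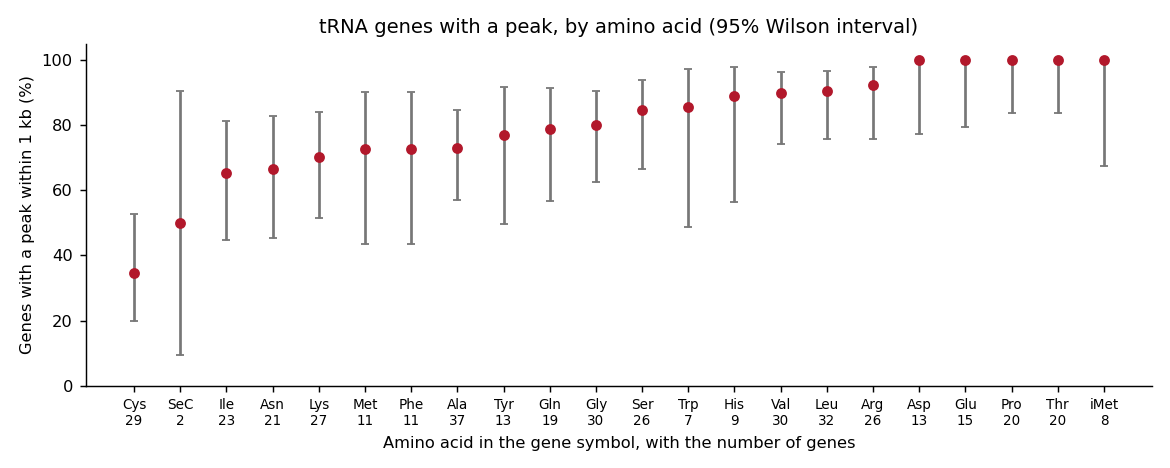
Share of tRNA genes with a peak within 1 kb, in percent with 95% Wilson intervals, by the amino acid in the symbol, ordered by share; the number under each name is the number of genes. Cysteine, at 34.5% of 29 genes, is the lowest, and 5 groups including the initiator methionine genes (iMet) stand at 100%; SeC is selenocysteine.

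The share with a peak was lower at high family numbers in the symbol, which as a rule is given from the best-scoring predicted tRNA of an anticodon downwards. Among the 421 genes with such a number, 91.4% of 116 genes of family 1 and 93.3% of 104 of family 2 had a peak. Then came 81.9% of 94 of families 3 to 4, 76.0% of 50 of families 5 to 6 and 33.3% of 57 numbered 7 and over. With peaks of at least 4-fold only, family 1 stood at 50%, family 2 at 55.8%, families 3 to 4 at 46.8%, families 5 to 6 at 50% and those numbered 7 and over at 24.6%. Under that filter only the last group stood lower than the rest, and the decline over families 1 to 6 was not seen. Median pileups in the same order were 45.3, 49.02, 34.97, 25.6 and 23.1 tags. In 2 groups, families 1 to 4 had a peak at 280 of 314 genes (89.2%, 95% Wilson interval 85.3% to 92.1%) and families 5 and over at 57 of 107 (53.3%, 43.9% to 62.5%). Leaving out cysteine genes gave 89.9% and 60.0%, leaving out chromosome 7 gave 89.4% and 58.4%, and leaving out chromosome 6 gave 90.0% and 52.4%. Of the 57 genes numbered 7 and over, 20 were cysteine genes with GCA and 13 alanine genes with AGC. Within families 1 to 4, cysteine stood at 57.1% of 7 genes, and alanine at 92.9% of 14 genes compared with 73.0% of all 37 alanine genes.

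Most families with several copies had a peak at every copy, with differing pileups. Of the 57 families with 2 or more loci, 41 had a peak at every locus, 10 at some and 6 at none. Those with peaks at all loci included the 11 loci of TRD-GTC2, 8 of TRP-AGG2 and 7 of TRE-CTC1. In the 48 families with at least 2 loci under a peak, the highest pileup was 2.31 times the lowest in the median, and for the 6 loci of TRF-GAA1 the range was 12.2 to 75.7 tags. Within families 1 to 4, genes with 1 locus had a peak in 83.1% of 118 cases and genes with more loci in 92.9% of 196. Within families 5 and over, these were 54.3% of 81 and 13 of 26.

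**Figure D5:**
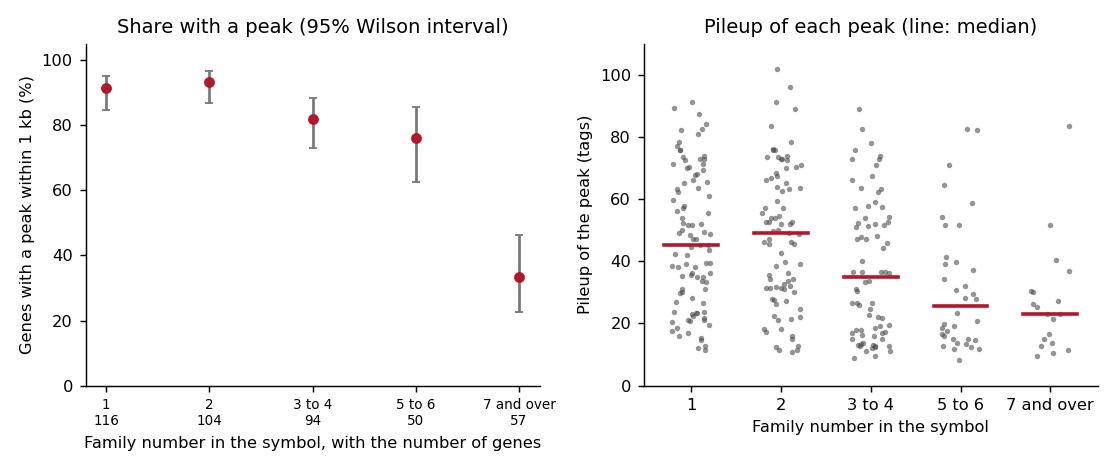
Left, share of tRNA genes with a peak (percent, 95% Wilson interval) by family number, with the number of genes under each group; right, pileup in tags of each peak, counted once per group, with the group median as a line. The share runs from 91.4% in family 1 to 33.3% at 7 and over, and the median pileup from 45.3 to 23.1 tags.

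The machinery that makes and uses tRNA had peaks throughout. All 77 genes of the list did: 18 subunits of RNA polymerase III, 6 of TFIIIC, 4 of TFIIIB (BRF1, BRF2, BDP1 and TBP), the polymerase III repressor MAF1, 6 factors of other polymerase III promoters, La (SSB), 18 maturation genes, 20 cytosolic aminoacyl-tRNA synthetases and 3 genes of the synthetase complex. Over their highest end peaks, the medians were 55.7 tags and 5.56-fold. Among them BRF1 had the lowest pileup, 9.91 tags. GTF3C1, the TFIIIC subunit that contacts the B box, had a peak of 61.3 tags, 7.47-fold, and MAF1 one of 76.7 tags, 4.13-fold. The background for protein-coding genes is the 73.5% given above. These are mostly housekeeping genes, and the list was not set against other lists.

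Other short genes transcribed by RNA polymerase III were measured in the same way, a set chosen after the tRNA values were seen. All 20 had a peak, with pileups from 24.8 to 93.3 tags, where the background is the 42.8% of all genes and 58.4% of snRNA genes given above. A protein-coding end lay within 1 kb of 6 of the 20, RPPH1 and RMRP among them, and RNU6-7 and RNU6-8 shared 1 peak. The set was chosen with its values known, so its count supports nothing. They comprised the 4 vault RNA genes, the 4 Y RNA genes, 5 U6 genes, the U6atac gene RNU6ATAC, RN7SK, 3 genes of the signal recognition particle RNA, RMRP and RPPH1. RPPH1, the RNA of the RNase P that trims the front end of tRNA precursors, had 93.3 tags, 6.20-fold. RMRP had 72.9 tags.

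The library had 22188172 tags after the caller kept 1 per position, and the lowest member pileup was 8.21 tags. At the tRNA genes that lack a peak no openness was called, which does not show that they were closed. Whether depth, repeated sequence or local background kept a peak from being called was not tested. As a check of the label, all 7 endothelial genes examined (PECAM1, CDH5, TIE1, TEK, KDR, CLDN5 and SLC2A1) had a peak at an end. So did 3 of 3 mural, 2 of 2 neuronal and 1 of 2 astrocyte genes and the leukocyte gene PTPRC, so an end peak alone does not separate cell types here.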

How the data were processed

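Chromatin accessibility was measured in 1 ATAC library of hCMEC/D3; the grouping comes from sample titles. Per the file headers, the authors called broad peaks with MACS 2.2.7.1 with no control library, in single-end mode although sequencing was paired-end per the labels. Its settings were a shift of -100 bp, an extension of 200 bp, q limits of 0.05 and 0.1 (broad) and the mouse preset for genome size. The deposited values of each peak are a pileup signal in tags, the fold ratio over the local background, and −log10 p-value and −log10 q-value. The submitters' processing notes name GRCh38, mm10, Bowtie2, SAMtools 1.13 and Picard with no roles. Peak positions were therefore read as GRCh38.

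Of 443 tRNA genes in the table, 14 (13 of them on chromosome 1) carry coordinates of a second sequence of the chromosome, recognised because start positions begin again, and were left out, as were 679 rows in all. Overlap meant at least 1 bp. The local background is (pileup + 1)/fold − 1, an estimate, because pileup and fold are each 1 value for a whole broad peak. Shares carry 95% Wilson intervals (scipy 1.17.1). Overlap functions were tested on simulated data. The members and lists were chosen with earlier results of these data known. Named peaks are the 5 of highest pileup, fold, length and gene number, the 3 of lowest pileup, and the 5 largest clusters; other names were chosen after values were seen. Sequences of the tRNA genes under the 5 highest peaks were not used here. The 2 RNA tables were not analysed here. Windows, filters, overlap, cluster distance, protein-coding ends and chromosome 6 were varied.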

Additional observations from a re-analysis of the deposited data

How the results depend on the processing

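Of 90 alternative values of the main results, 63 stayed near the reported value, meaning within 1.5-fold for a count, the Wilson interval for a share, or a 95% order-statistic interval for a median; 27 moved, and the cause was not tested. Leaving out chromosomes 1 and 7 or genes without a family number, adding genes on second sequences, and the alternatives by amino acid and family were added after seeing the data. No gene symbol began with NMTR, so that alternative gave no value. No paired analysis was possible because there was 1 ATAC library and the RNA tables were not used.

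With −log10 q of at least 5, a peak was present at 70.2% of tRNA genes and 71.7% of clustered ones. Member medians were then 947 bp, 39.3 tags and 4.71-fold, and other gene-end medians 904 bp, 40.3 tags and 5.08-fold. With a fold of at least 4, 172 members remained, at 46.9% of tRNA genes, 41.3% of clustered and 58.8% of single ones. Their medians were 902 bp, 32.1 tags and 5.09-fold, and other gene-end medians were 889 bp, 39.5 tags and 5.48-fold. Without chromosome 6, 177 members had medians of 979 bp and 45.5 tags. Without tRNA genes near protein-coding ends, the median pileup was 30.01 tags. Other gene-end medians were 943 bp, 40.1 tags and 4.71-fold for protein-coding ends only, and 890 bp, 37.7 tags and 4.79-fold within 500 bp. Of 196 values by amino acid and family number, 161 stayed and 35 moved. No single value has a sign to reverse, but orders between values did turn. At 4-fold or above, tRNA genes fell below protein-coding genes, clustered below single genes, and proline from 100% to 30%. Median length of members lay above that of other gene-end peaks under both filters, while their median pileup stayed below. One library limits all values to counting depth with no replicate error.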
